A study of Mus musculus with 2 samples.

Results

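The Bcl2 family and its partners decide whether a cell that has received a death signal lives. The genes described here are 10 of the 31053 genes of the deposited matrix, chosen by name: the survival genes Mcl1, Bcl2, Bcl2l1, Bcl2a1a, Bcl2a1b and Bcl2a1d, the caspase-8 regulator Cflar, the BH3-only genes Bcl2l11 and Bid, and the pore former Bax. They were measured by droplet single-cell RNA sequencing with a 5′ kit in tumor-associated neutrophils (TANs), sorted as CD11b+Ly6G+ cells from tumors of Lewis lung carcinoma (LLC), a mouse lung carcinoma line, grown under the skin of C57BL/6 mice aged 8 to 12 weeks. There was 1 library from wild-type hosts (Smad3-WT, Smad3+/+) and 1 from hosts without functional Smad3 in any tissue (Smad3-KO, Smad3-/-), each from pooled tumors, while the carcinoma cells were of the same line in both. With 1 library per genotype there is no replicate error and no test of genotype. Every interval below is at the 95% level and covers counting error only, and a difference between the libraries cannot be told apart from a difference between 2 pools of tumors or 2 preparations.

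Mitochondrial cell death starts when Bax, or its relative Bak, opens pores in the outer mitochondrial membrane. Mcl1, Bcl2, Bcl-xL (the product of Bcl2l1) and A1 (the product of the Bcl2a1 genes) hold these pore formers back, and BH3-only proteins such as Bim (Bcl2l11) and Bid free them again. Neutrophils are short-lived cells that depend on Mcl1, a protein with a very short half-life, and they carry little Bcl2, whereas lymphocytes rely on Bcl2. A1 is a survival protein of leukocytes that inflammatory signals induce. Cflar encodes c-FLIP, which stops death receptors from activating caspase-8.

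The Bcl2a1 genes need their sequences shown first, because the copies are so alike that their counts are uncertain. In the genome build GRCm38 (mm10) all 3 copies lie on chromosome 9, at chr9:88956900-88962419 on the plus strand for Bcl2a1a, chr9:89199209-89207827 on the plus strand for Bcl2a1b and chr9:88723285-88731914 on the minus strand for Bcl2a1d. Their annotated transcripts were 98.2% identical between Bcl2a1a and Bcl2a1b, 98.8% between Bcl2a1a and Bcl2a1d and 99.1% between Bcl2a1b and Bcl2a1d. Of all stretches of 90 bases, 53.0% of the Bcl2a1a transcript, 63.9% of the Bcl2a1b transcript and 38.4% of the Bcl2a1d transcript occurred in no other Bcl2a1 copy, counting Bcl2a1c as well. Reads from the other stretches fit several copies and are lost or split by counters, so the 3 copies are given singly and as a sum. The stretches were taken over whole transcripts, whereas reads of a 5′ kit lie toward the transcript start. The percentages are thus not the shares of these reads that could be placed. Over the 100 bases compared, the promoter of Bcl2a1d also differs from those of Bcl2a1a and Bcl2a1b, at a repeat. The RefSeq sequence just upstream of each gene start is shown over 100 bases, 5′ to 3′ on the gene's own strand, with each GAGGAA on that strand, a core that PU.1 and other ETS factors bind, in capitals. The same core on the opposite strand, read here as ttcctc near the end of each stretch, is not marked.
Bcl2a1a, chr9:88956756-88956855: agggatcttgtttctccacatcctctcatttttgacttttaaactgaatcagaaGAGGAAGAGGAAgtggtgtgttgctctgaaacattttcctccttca
Bcl2a1b, chr9:89199065-89199164: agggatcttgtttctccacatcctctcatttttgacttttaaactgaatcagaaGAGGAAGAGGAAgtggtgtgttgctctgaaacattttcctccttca
Bcl2a1d, chr9:88731915-88732014: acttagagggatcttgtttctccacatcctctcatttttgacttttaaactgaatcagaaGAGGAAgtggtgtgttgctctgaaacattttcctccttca
The stretches of Bcl2a1a and Bcl2a1b were identical over 100 bases, and Bcl2a1d had 1 GAGGAA where they had 2, with no other difference over the aligned bases. GAGGAAGT, searched on both strands in windows from 250 bases before to 50 bases after each RefSeq start, was found in these 3 of the 10 members and in 3.2% of the 32851 windows. The matches describe the letters in these windows and say nothing about binding.

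Sequencing gave 4116 barcodes with 23951400 UMIs for Smad3-WT and 2514 barcodes with 4214290 UMIs for Smad3-KO. After filtering, 3520 Smad3-WT and 2433 Smad3-KO cells remained, with medians of 1318.5 and 1199 UMIs per cell. The 2 libraries shared 73 barcode sequences. Over all barcodes before filtering, Smad3 itself stood at 76.6 UMIs per 1000000 (CPM) in the Smad3-KO library and 12.7 in Smad3-WT. Tags of a 5′ kit lie toward the transcript start, away from the deleted exon, and do not check the genotype. The libraries were also unlike mixes of cell types, so these values do not compare Smad3 within a cell type. Against the sort gate, the neutrophil-like class held 51.6% of the Smad3-WT cells and 39.9% of the Smad3-KO cells (1817 and 971). The others were mostly macrophage or monocyte-like (906 and 49 cells), T or NK-like (57 and 459), B cell-like (3 and 454), LLC carcinoma-like (404 and 31), fibroblast-like (39 and 60) and dendritic-like (27 and 42). The names come from marker genes in clusters made without the genes of this report. Different clusters held the neutrophil-like cells of the 2 libraries. Cluster 1, led by Il1a, Csf3 and Tnfaip3, had 727 Smad3-KO and 7 Smad3-WT cells. Clusters 4 (led by Mmp9 and Csf1), 5 (Gm5483, Hcar2) and 10 (Ifit3b, Rsad2) had 557, 534 and 241 Smad3-WT cells against 10, 20 and 26 Smad3-KO cells. Only cluster 2, led by Ngp, Ly6g and Retnlg, was well filled from both, with 478 and 188 cells. Its Ngp stood at 2.55 CPM in Smad3-WT and 18943 CPM in Smad3-KO. Of its Smad3-KO cells, 56 carried UMIs of Camp, a granule gene of neutrophil precursors, and 0 of its Smad3-WT cells did.

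Mcl1 stood highest in neutrophil-like cells in both libraries, and it was higher there in Smad3-KO. Levels are in CPM, the UMIs of a gene per 1000000 UMIs of the class. In neutrophil-like cells Mcl1 (chr3:95658788-95663176) stood at 1300 CPM (1245 to 1357) in Smad3-WT and 2264 CPM (2180 to 2350) in Smad3-KO, a ratio of 1.74 (1.64 to 1.84). In Smad3-WT it was 2.65 times its level in macrophage or monocyte-like cells (2.48 to 2.82) and 8.09 times that in LLC carcinoma-like cells (7.46 to 8.79). In Smad3-KO it was 6.29 times the level of T or NK-like cells (5.55 to 7.15) and 9.39 times that of B cell-like cells (8.06 to 11.002). Thinned to 500 UMIs per cell, the neutrophil-like cells with a UMI of Mcl1 were 44.1% in Smad3-WT (41.8 to 46.4) and 63.1% in Smad3-KO (60.01 to 66.2), against 57.2% and 82.0% unthinned at medians of 739 and 1031 UMIs.

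**Figure D1:**
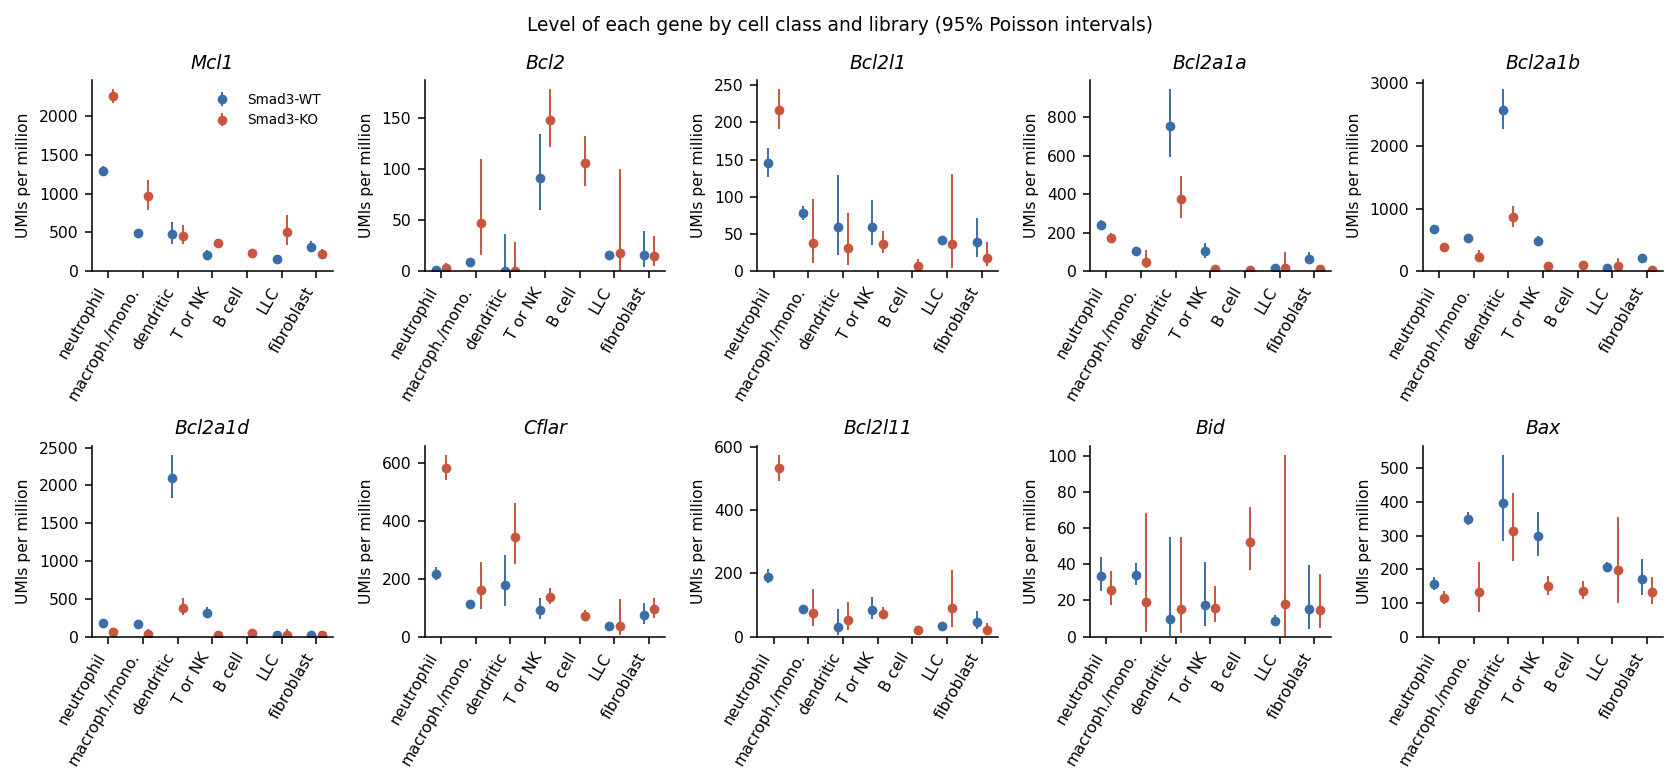
CPM (y axis) of each of the 10 genes by cell class (x axis) in the Smad3-WT (blue) and Smad3-KO (red) libraries, for classes of at least 25 cells, with 95% Poisson intervals as bars. Mcl1, Bcl2l11 and Cflar stand highest in neutrophil-like cells of Smad3-KO, the 3 Bcl2a1 copies in dendritic-like cells of Smad3-WT, and Bcl2 in T or NK-like and B cell-like cells.

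Of the 9 members with at least 50 UMIs in neutrophil-like cells, 3 were at least 1.5-fold higher in Smad3-KO and 2 at least 1.5-fold lower. Among all 3859 genes with that many UMIs, 12.9% were higher and 38.8% lower, and the median ratio of all genes was 0.768 (-0.38 on the log2 scale). The median of the 9 members, 0.756, was close to that of all genes. Scaling by the median of ratios, which sets the median gene to no difference, gave 4 members higher and 1 lower, since Bcl2l1 then passed 1.5-fold at 1.94 and Bcl2a1b, at 0.745, no longer did. Under that scaling 23.1% of all genes were higher and 20.4% lower. Besides Mcl1, the higher genes were Cflar and Bcl2l11.

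Cflar (chr1:58711508-58758884) stood at 217 CPM (195 to 241) in Smad3-WT and 584 CPM (542 to 628) in Smad3-KO, a ratio of 2.69 (2.36 to 3.07). The share of cells with a UMI, thinned, was 10.5% in Smad3-WT and 27.0% in Smad3-KO. Bcl2l11 (chr2:128126038-128162547), which encodes the death inducer Bim, stood at 190 CPM (169 to 212) in Smad3-WT and 532 CPM (492 to 574) in Smad3-KO, a ratio of 2.81 (2.44 to 3.23). Thinned shares were 8.09% and 22.6%. A survival gene, an inhibitor of caspase-8 and a death gene were thus all higher in the same library.

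Bcl2l1 (chr2:152780668-152831728), the Bcl-xL gene, stood at 145 CPM (127 to 165) in Smad3-WT and 216 CPM (191 to 244) in Smad3-KO, and its ratio of 1.49 (1.25 to 1.79) was just under 1.5. Bax (chr7:45461697-45466898) stood at 156 CPM (138 to 177) and 114 CPM (95.4 to 134), a ratio of 0.727 (0.586 to 0.898). Under scaling by the median of ratios, the ratio of Bax was 0.946. It was 0.856 when the unnamed cluster led by Prok2, described below, was counted as neutrophil-like. With another seed of the clustering it was 0.853, with 100 components at resolution 0.1 it was 0.841, and with no filter on cells 0.891. Other alternatives went lower, to 0.724, 0.717, 0.706 and 0.541. The size of the Bax difference thus moved with the cells of the class, and these ratios are given without intervals. Bid (chr6:120891930-120916853), which caspase-8 cleaves to join the death receptor route to mitochondria, stood at 33.8 CPM in Smad3-WT and 25.5 in Smad3-KO, and the interval of its ratio, 0.470 to 1.197, holds both no difference and a 1.5-fold lower level. Bcl2 (chr1:106538178-106714274) had 2 UMIs in 1817 Smad3-WT cells and 4 in 971 Smad3-KO cells, too few for a ratio.

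The Bcl2a1 copies went the other way. In neutrophil-like cells Bcl2a1b stood at 672 CPM (633 to 714) in Smad3-WT and 384 CPM (350 to 421) in Smad3-KO, a ratio of 0.572 (0.512 to 0.638). Bcl2a1d stood at 177 CPM (157 to 199) and 62.6 CPM (49.3 to 78.3), a ratio of 0.353 (0.271 to 0.457). Bcl2a1a stood at 241 CPM (218 to 267) and 174 CPM (151 to 199), and its ratio of 0.719 (0.605 to 0.853) did not pass 1.5-fold. Under scaling by the median of ratios, Bcl2a1a was close to no difference at 0.937, Bcl2a1b was 0.745 and Bcl2a1d 0.460. The sum of the 3 copies was 1091 CPM against 621, a ratio of 0.569 (0.522 to 0.620). For comparison, 1.73% of LLC carcinoma-like cells of Smad3-WT had a UMI of Bcl2a1b after thinning. The thinned shares of neutrophil-like cells were 23.0% in Smad3-WT and 14.8% in Smad3-KO. Unthinned, the share of these LLC carcinoma-like cells was 23.0% at a median of 13102.5 UMIs. Those of neutrophil-like cells were 33.8% and 28.3% at medians of 739 and 1031 UMIs. Thinning from the greater depth of LLC carcinoma-like cells also dilutes RNA from other cells. Their thinned share is thus no measure of background in neutrophil-like cells, and whether they express Bcl2a1b was not tested.

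**Figure D2:**
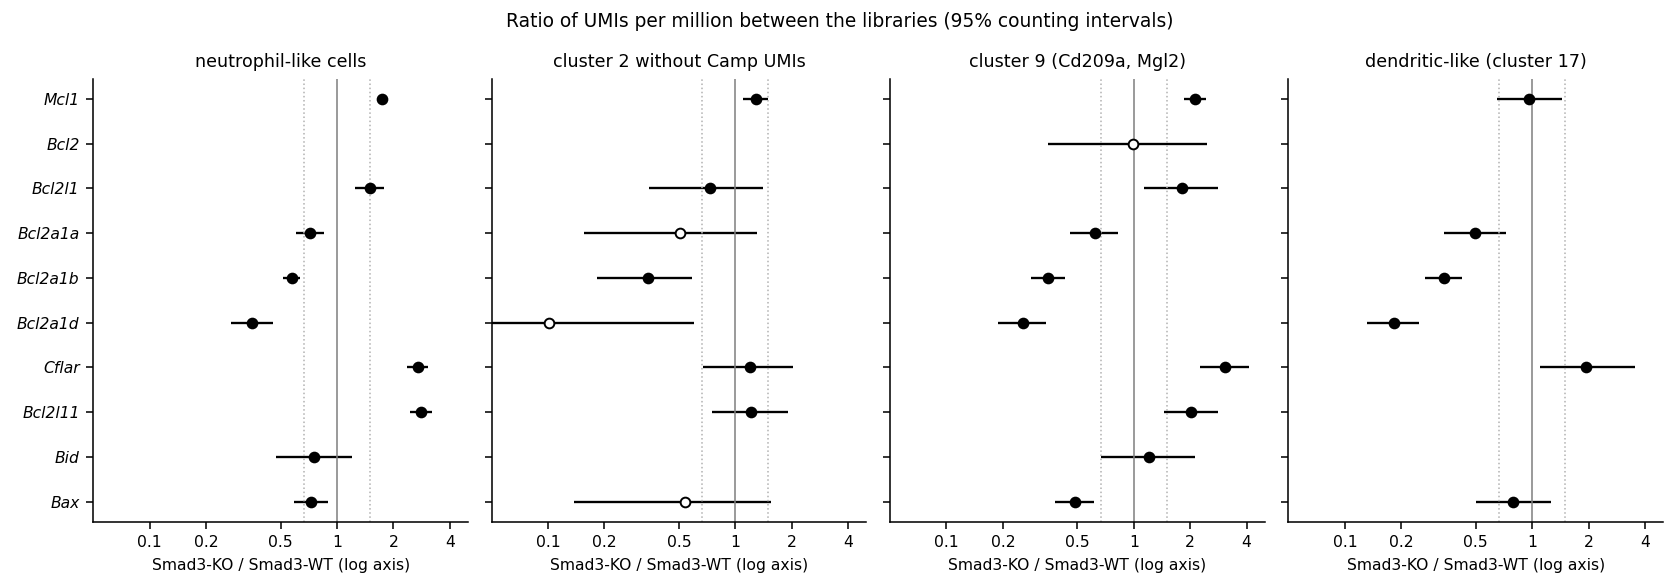
Ratio of CPM, Smad3-KO over Smad3-WT (log axis), for each gene in neutrophil-like cells, in cells of cluster 2 with no Camp UMI, in cluster 9 and in dendritic-like cells, with 95% counting intervals as bars and dotted lines at 1.5-fold. Filled points have at least 50 UMIs over both libraries and open points 20 to 49, and genes with fewer, or with none in a library, are left out. The Bcl2a1 copies lie left of 1 in all 4 panels, and Mcl1, Cflar and Bcl2l11 lie beyond the right dotted line in the panels of neutrophil-like cells and cluster 9.

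Among the neutrophil-like clusters with at least 25 cells of a library, the highest levels of Mcl1, Cflar and Bcl2l11 belonged to cluster 1, which holds most Smad3-KO cells of the class. In its 727 Smad3-KO cells Mcl1 stood at 2539 CPM (2437 to 2644), Cflar at 692 CPM (639 to 748) and Bcl2l11 at 630 CPM (579 to 683). Across clusters 2, 4, 5 and 10 of Smad3-WT, Mcl1 ranged from 1107 CPM in cluster 4 to 1610 CPM in cluster 2, Cflar from 148 CPM in cluster 2 to 273 CPM in cluster 5, and Bcl2l11 from 148 CPM in cluster 10 to 212 CPM in cluster 5. Cluster 1 lay above this whole range for each of the 3 genes. Bcl2l1 stood at 260 CPM (228 to 295) in cluster 1 and at 113 to 177 CPM in the same Smad3-WT clusters. The few Smad3-KO cells outside clusters 1 and 2 differed among themselves. Mcl1 stood at 1390 CPM (871 to 2105) in 20 Smad3-KO cells of cluster 5 against 1329 CPM in Smad3-WT, and at 1245 CPM (501 to 2566) in 10 Smad3-KO cells of cluster 4 against 1107 CPM. Bcl2l11 stood at 695 CPM (347 to 1244) in those cells of cluster 5, from 11 UMIs, above the point value of cluster 1. In cluster 10, led by interferon-induced genes, Mcl1 stood at 2317 CPM (1708 to 3072) in 26 Smad3-KO cells and 1140 CPM (999.8 to 1295) in 241 Smad3-WT cells, a ratio of 2.03 (1.46 to 2.78). There 2 of 4 members with at least 50 UMIs were higher and 2 lower, beside 16.3% and 27.8% of 644 genes. Apart from Mcl1, these calls had intervals that held no difference. They were Cflar (1.83, 0.745 to 3.93), Bcl2a1a (0.630, 0.125 to 1.95) and Bcl2a1b (0.526, 0.189 to 1.18), from 8, 3 and 6 Smad3-KO UMIs.

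In cluster 2, which both libraries filled, these differences were smaller or turned. Mcl1 stood at 1610 CPM in Smad3-WT and 1351 CPM in Smad3-KO, a ratio of 0.839 (0.734 to 0.958), Bcl2l11 at 199 and 172 CPM, a ratio of 0.863 (0.582 to 1.26), Bcl2l1 at a ratio of 0.501, and Cflar at 148 and 222 CPM, a ratio of 1.503 (1.02 to 2.21). Of its 6 members with at least 50 UMIs, 1 was higher (Cflar) and 3 lower (Bcl2l1, Bcl2a1a, Bcl2a1b), beside 15.9% and 32.1% of 1438 genes. The Smad3-KO side held the precursor-like cells: in the 56 cells with Camp, Mcl1 stood at 833 CPM (693 to 993), Bcl2l11 at 121 CPM (71.7 to 191), Bcl2l1 at 47.0 CPM (18.9 to 96.9) and Bcl2a1b at 155 CPM (98.0 to 232), and Bcl2 had 0 UMIs. Their median depth was 2408 UMIs, against 724 in Smad3-KO cells without Camp and 700 in Smad3-WT, and a split by a detected UMI moves with depth. Neutrophil markers took 231424 CPM in Smad3-KO cells of cluster 2 and 126931 CPM in Smad3-WT, which lowers the CPM of other genes. The part of depth and of these markers in the levels was not tested. In the 132 Smad3-KO cells without Camp, Mcl1 stood at 2068 CPM (1805 to 2358) against 1610 CPM in the 478 Smad3-WT cells, a ratio of 1.28 (1.10 to 1.499). The ratios of Bcl2l11, 1.22 (0.749 to 1.92), and of Cflar, 1.196 (0.672 to 2.04), had intervals that held no difference. Bcl2a1b kept its direction, at 130 CPM against 383 CPM, a ratio of 0.341 (0.182 to 0.590). In these cells 0 of 5 members with at least 50 UMIs were higher and 1 was lower, beside 13.6% and 27.2% of 1152 genes.

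**Figure D3:**
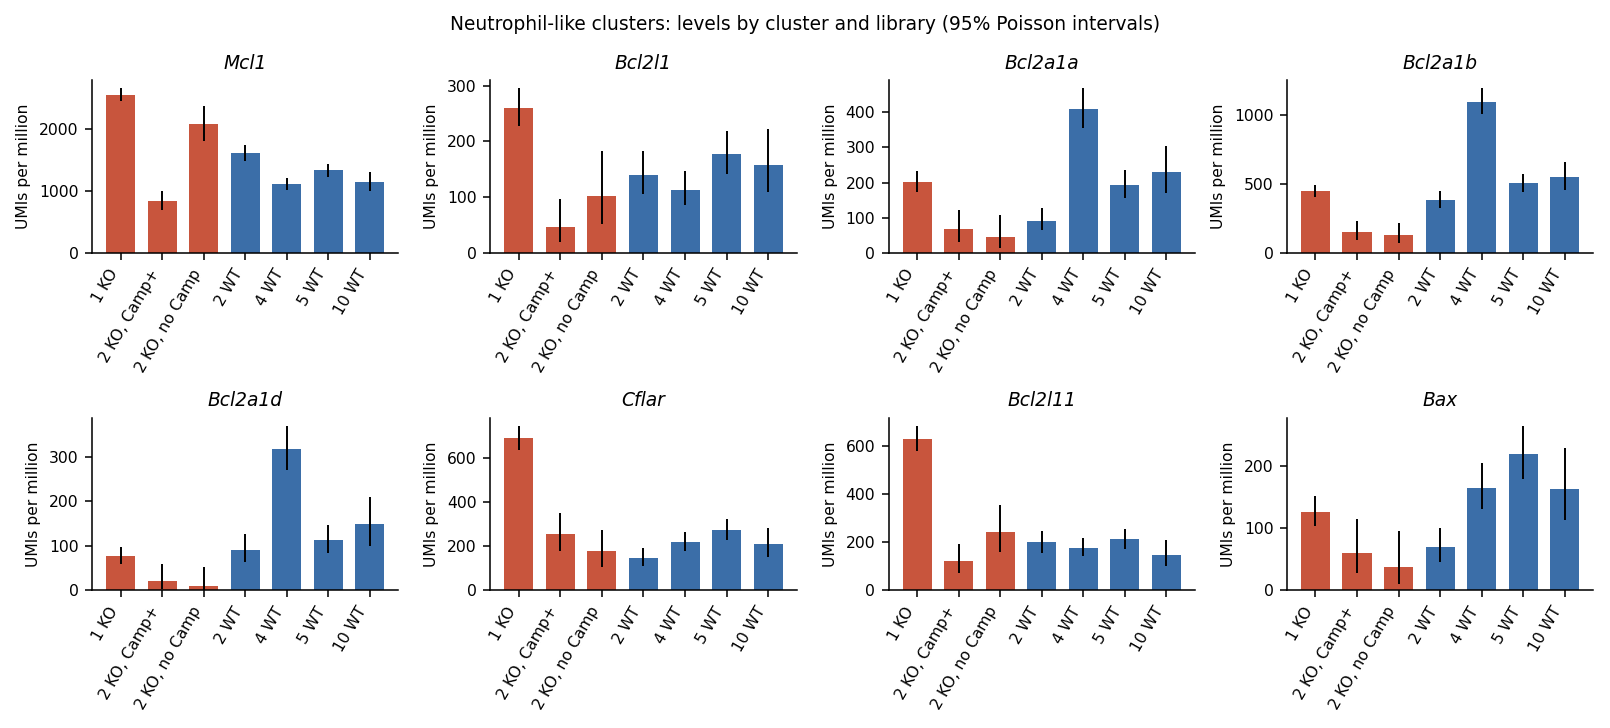
CPM (y axis) of 8 genes in the neutrophil-like clusters (x axis), blue for Smad3-WT and red for Smad3-KO, with cluster 2 of Smad3-KO split into cells with and without a Camp UMI and 95% Poisson intervals as bars, for groups of at least 25 cells. The 26 Smad3-KO cells of cluster 10 are not shown. Among the groups shown, cluster 1 is highest for Mcl1, Cflar, Bcl2l11 and Bcl2l1, and cluster 4 of Smad3-WT is highest for the 3 Bcl2a1 copies, with Bcl2a1b at 1099 CPM.

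The Bcl2a1 copies varied among the Smad3-WT neutrophil-like clusters. Bcl2a1b stood at 1099 CPM (1010 to 1195) in cluster 4, while clusters 2, 5 and 10 had 383, 505 and 551 CPM. The 10 Smad3-KO cells of cluster 4 had 1423 CPM (614 to 2804) from 8 UMIs. Bcl2a1a, at 408 CPM there and 91.9 CPM in cluster 2, and Bcl2a1d, at 317 and 91.9 CPM, had the same lowest and highest Smad3-WT cluster. Bax had another order, with 218, 164, 163 and 68.9 CPM in clusters 5, 4, 10 and 2. The intervals of clusters 4 and 10 overlapped those of cluster 5 for Bax, and that of cluster 2 did not.

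Bax stood higher in an unnamed cluster that the neutrophil-like class left out than in that class. Cluster 13, led by Prok2, Itpr2, Gpnmb and Mdm2, had 89 Smad3-KO and 11 Smad3-WT cells (3.66% and 0.313% of each library) and a median of 643.5 UMIs. In its Smad3-KO cells Bax stood at 581 CPM (409 to 800) against 114 CPM in neutrophil-like cells. Bcl2l11 stood at 581 CPM (409 to 800) against 532 CPM. Its ratio of neutrophil-like cells over cluster 13, 0.916 (0.657 to 1.31), had an interval that held no difference. Mcl1 was lower there, at 1020 CPM (787 to 1300). Mdm2, a p53 target as Bax is, stood at 1020 CPM in these cells and at 154 CPM in Smad3-KO cells of cluster 1. Cdkn1a, another p53 target, went the other way, at 659 CPM and 1399 CPM. Neutrophil markers summed to 13762 CPM in these cells against 71969 CPM in cluster 1. The low depth of these cells moved with these levels, and its part in them was not tested.

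Outside neutrophils, the direction of the Bcl2a1 copies was shared by most classes that both libraries held. Dendritic-like cells (cluster 17, led by Ccl22 and Ccr7) had the highest levels: Bcl2a1b stood at 2570 CPM (2266 to 2903) in 27 Smad3-WT cells and 865 CPM (713 to 1040) in 42 Smad3-KO cells, a ratio of 0.337 (0.267 to 0.421). Bcl2a1d stood there at 2103 CPM (1830 to 2407) and 383 CPM (284 to 505), a ratio of 0.182 (0.131 to 0.249). Mcl1 was alike in the point values, 476 and 459 CPM, with a ratio interval of 0.649 to 1.44. Of 6 members with at least 50 UMIs, 1 was higher (Cflar, 1.93, 1.09 to 3.54) and 3 lower, beside 16.8% and 25.4% of 602 genes.

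Cluster 9, unnamed and led by Cd209a, Mgl2 and H2-Eb1, had the same directions as the neutrophil-like class for the genes given here. In 249 Smad3-WT and 147 Smad3-KO cells Mcl1 stood at 369 and 784 CPM, a ratio of 2.12 (1.85 to 2.43), Cflar at 63.7 and 194 CPM, a ratio of 3.05 (2.26 to 4.13), and Bcl2l11 at 66.7 and 134 CPM, a ratio of 2.01 (1.44 to 2.80). Bcl2a1b stood at 573 and 201 CPM, a ratio of 0.350 (0.281 to 0.431), Bcl2a1d at 415 and 106 CPM, and Bax at 355 and 172 CPM, a ratio of 0.485 (0.381 to 0.612). Of 9 members 4 were higher and 4 lower, beside 18.4% and 20.2% of 4472 genes. Neutrophil markers summed to 4804 CPM in its Smad3-WT and 7415 CPM in its Smad3-KO cells, with 0 of 12 markers at 0 in either. The sum was 89453 CPM in Smad3-WT neutrophil-like cells, and the part of neutrophil RNA in the result was not tested.

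The macrophage or monocyte-like class had only 49 Smad3-KO cells. Mcl1 stood at 491 CPM in Smad3-WT and 975 CPM in Smad3-KO, a ratio of 1.99 (1.61 to 2.42), Bcl2a1b at 526 and 227 CPM, a ratio of 0.432 (0.276 to 0.645), and Bax at 351 and 133 CPM, a ratio of 0.378 (0.206 to 0.637). Of 9 members 1 was higher and 6 lower, beside 24.1% and 27.5% of 6391 genes, but 4 of those 6 rested on 5 or fewer Smad3-KO UMIs each. With no filter on cells, when the class held 128 Smad3-KO cells, 4 were higher and 2 lower. The share of all genes at that setting is not given. Bcl2a1b, at a ratio of 0.725, then did not pass 1.5-fold. With another seed of the clustering the ratio of Mcl1, 1.395, did not pass. Summed levels of neutrophil markers in this class were 5862 CPM in Smad3-WT and 2689 CPM in Smad3-KO, those of T or NK markers 42.9 and 388 CPM and those of B cell markers 35.9 and 417 CPM, and their part in these ratios was not tested.

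In cluster 16 the libraries differed in Bcl2. It is T or NK-like and led by Gzma, Nkg7 and Gzmb, with the T cell gene Cd3e at 740 CPM in Smad3-WT and 1091 CPM in Smad3-KO. Bcl2 stood there at 110 CPM (71.9 to 161) in 45 Smad3-WT cells and 322 CPM (219 to 457) in 39 Smad3-KO cells, a ratio of 2.93 (1.68 to 5.13). Bcl2a1b stood there at 504 and 83.1 CPM, a ratio of 0.165 (0.0696 to 0.336), and its members with at least 50 UMIs, 1 higher and 3 lower of 5, stood beside 12.4% and 32.2% of 878 genes. Neutrophil markers summed to 3114 CPM in its Smad3-WT cells and 114 CPM in its Smad3-KO cells, and their part in the Bcl2a1b ratio was not tested. Over all T or NK-like cells of Smad3-KO, Bcl2 stood at 148 CPM (122 to 178), and in B cell-like cells at 106 CPM (83.7 to 133), against 3.29 CPM (0.897 to 8.43) in neutrophil-like cells of the same library. Fibroblast-like cells had Bcl2a1b at 213 CPM in Smad3-WT and 23.9 CPM in Smad3-KO, with 3070 and 1488 CPM of neutrophil markers. LLC carcinoma-like cells were the exception in direction, with 54.96 CPM in Smad3-WT and 90.3 CPM in Smad3-KO from 5 UMIs of 31 cells, and a ratio interval of 0.529 to 3.88. Neutrophil markers summed there to 1285 and 4877 CPM and fibroblast markers to 398 and 9031 CPM, beside 1396 and 704 CPM of LLC markers, and their part in the value was not tested.

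The share of Bcl2a1d among the UMIs of the 3 copies differed between some of the groups. In Smad3-WT it was 16.2% of 1744 UMIs in neutrophil-like cells (14.5 to 18.0), 21.0% of 2844 in macrophage or monocyte-like cells (19.5 to 22.6), 35.2% of 1574 in cluster 9 (32.8 to 37.6), 35.3% of 255 in T or NK-like cells (29.4 to 41.5) and 38.8% of 547 in dendritic-like cells (34.7 to 43.0). The last 3 do not differ beyond their intervals, and all 3 lie above the first 2. LLC carcinoma-like cells had 19.6% of 429 UMIs (15.9 to 23.7), an interval that overlapped those of the first 2. In Smad3-KO the share was lower in each of these groups with at least 50 UMIs of the copies: 10.1% of 754 UMIs in neutrophil-like cells (8.0 to 12.5), 53 of 212 UMIs in cluster 9 (19.3 to 31.4%), 23.6% of 212 in dendritic-like cells (18.0 to 29.9) and 21.1% of 90 in T or NK-like cells (13.2 to 31.0). The interval of T or NK-like cells overlapped that of Smad3-WT and the others did not. Fibroblast-like cells, with 20 UMIs of the copies in Smad3-KO, had 7 of 78 UMIs from Bcl2a1d in Smad3-WT and 8 of 20 in Smad3-KO. Reads that fit several copies are lost from all 3, so these are shares of the reads that could be placed and not of the transcripts.

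**Figure D4:**
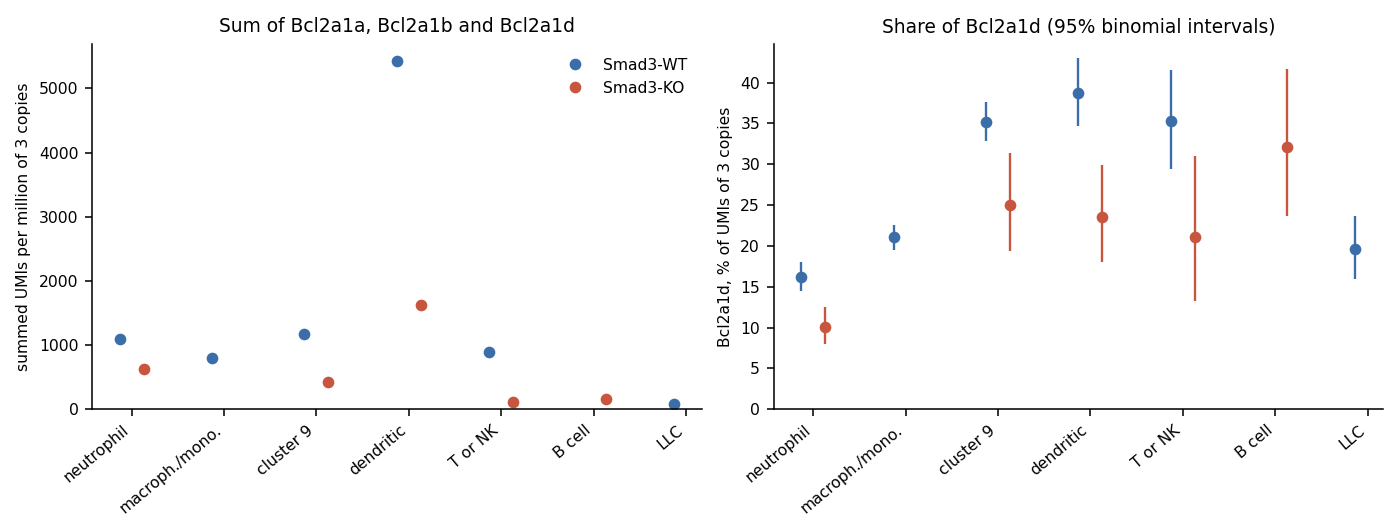
Left, CPM summed over Bcl2a1a, Bcl2a1b and Bcl2a1d by class, and right, Bcl2a1d as a percentage of those UMIs with 95% binomial intervals as bars, in Smad3-WT (blue) and Smad3-KO (red), where a group had counts enough to show. The sum reaches 5427 in dendritic-like cells of Smad3-WT and 1623 in those of Smad3-KO, and the share of Bcl2a1d is lower in Smad3-KO in each of the 4 groups shown for both.

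Of 59 other genes of cell death and survival, 25 had at least 50 UMIs in neutrophil-like cells, and 5 were at least 1.5-fold higher and 5 lower in Smad3-KO, beside the same 12.9% and 38.8% of all genes. Scaling by the median of ratios gave 9 higher and 3 lower, beside its 23.1% and 20.4%. In cluster 2, which both libraries filled, 13 of the other genes had at least 50 UMIs. Of these, 0 were higher and 6 lower, beside 15.9% and 32.1% of 1438 genes. The ratios below are for the whole class, whose clusters differ between the libraries. In the list of death receptors and adaptors, 5 genes were measured and 2 were higher. The adaptor Traf1 stood at 41.3 CPM in Smad3-WT and 400.1 CPM in Smad3-KO, a ratio of 9.69 (7.48 to 12.7). The TNF receptor Tnfrsf1b stood at 288 and 1328 CPM, a ratio of 4.61 (4.15 to 5.12). The other 3 had ratios from 0.683 to 1.25. Of 5 inhibitors of apoptosis, Birc3 was higher, at 135 and 386 CPM with a ratio of 2.86 (2.43 to 3.37), and Birc2 (0.658, 0.376 to 1.12) and Naip2 (0.462, 0.226 to 0.890) were lower.

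Of the caspase and apoptosome genes reported here, the inflammatory caspases Casp4 (3.29, 2.69 to 4.04) and Casp1 (1.57, 1.02 to 2.42) were higher, and 3 had ratios from 0.915 to 1.36. Of 4 further effector and BH3-only genes, Pmaip1, the Noxa gene whose product binds Mcl1, was lower at 144 and 94.7 CPM, a ratio of 0.655 (0.519 to 0.823). The other 3 lay between 0.712 and 1.497 and did not pass 1.5-fold. Of 5 survival cytokine receptor genes, Csf2ra, the alpha chain of the GM-CSF receptor, was lower at 358 and 176 CPM, a ratio of 0.492 (0.419 to 0.577). The antiapoptotic relatives Bcl2l2, Bcl2l10 and Bcl2a1c all fell short of 50 UMIs and could not be compared at this depth.

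The authors' deposited averages for 13 clusters of their own have no spread, since each is 1 pooled value. Each cluster's averages sum to 1311, so a value is UMIs per 1311 UMIs. Mcl1 was highest in cluster 3 of that table, at 3.30, where Il1a, Csf3 and Tnfaip3 led, then at 2.15 in cluster 4, 2.05 in cluster 6 and 1.89 in cluster 1, all with neutrophil markers, and lowest at 0.113 in the LLC cluster 11. Mcl1 stood at 1.40 in cluster 12, which had macrophage markers, above its 1.12 in cluster 10, which had neutrophil markers. These 2 clusters and cluster 4 also had markers of other classes. Cluster 4 had 7 of 10 B cell markers and cluster 10 had 8 of 14 macrophage or monocyte markers. Cluster 12 had 5 of 17 T or NK, 4 of 9 fibroblast and 3 of 11 dendritic markers. Their values may thus mix classes. Cflar (1.01), Bcl2l11 (0.877) and Bcl2l1 (0.350) were highest in the same cluster 3. The Bcl2a1 copies were highest in the dendritic cluster 13, at 1.17 for Bcl2a1b, 0.821 for Bcl2a1d and 0.429 for Bcl2a1a, and next highest for Bcl2a1a and Bcl2a1b in cluster 10, where Camp, Ngp and Ltf led, at 0.388 and 0.968. In the clusters described above, the Ngp-led cluster 2 was the lowest Smad3-WT neutrophil-like cluster for all 3 copies. However, 0 of its Smad3-WT cells carried a Camp UMI, while the deposited averages pool both libraries. The 2 groups are thus unlike, and their levels are not a direct comparison. In the 56 Smad3-KO cells of the Ngp-led cluster with a Camp UMI, Bcl2a1a stood at 67.2 CPM and Bcl2a1b at 155 CPM. Smad3-WT cells of that cluster had 91.9 and 383 CPM. The cause of the high deposited values was not tested. Bcl2 was highest in the T or NK cluster 9 (0.207) and the B cell cluster 8 (0.144). Bax was highest in the macrophage clusters 7 (0.488) and 5 (0.402), but stood at 0.135 in cluster 12, which had macrophage markers beside those of other classes.

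**Figure D5:**
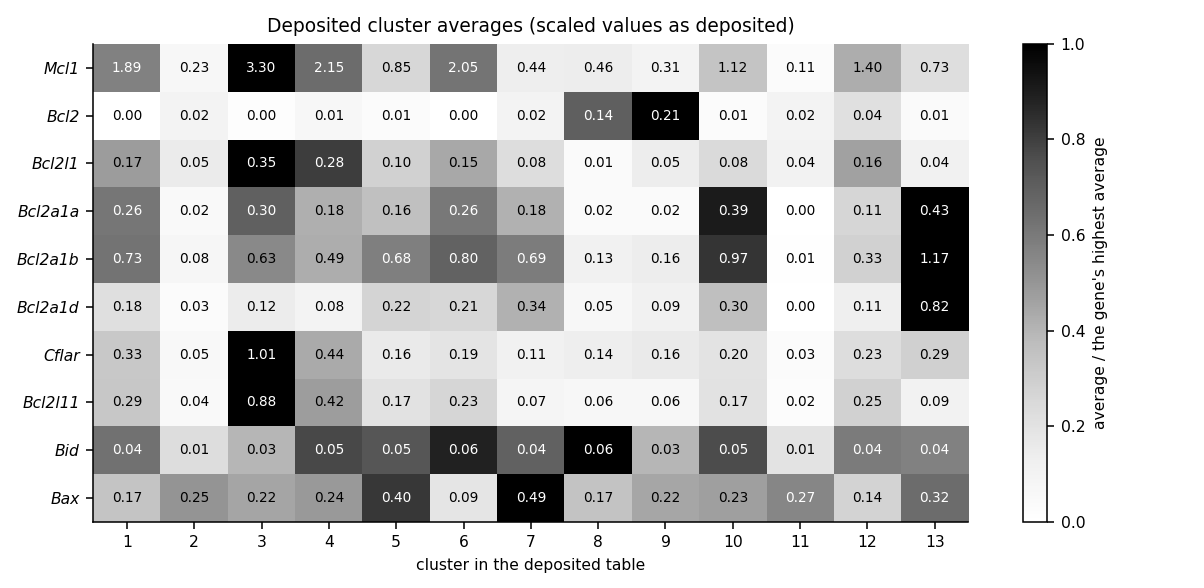
Deposited averages of the 10 genes (rows) in the 13 clusters of the deposited table (columns), with the value printed and the shade giving the value over the gene's highest. Cluster 3 is darkest for Mcl1, Bcl2l1, Cflar and Bcl2l11 and cluster 13 for the 3 Bcl2a1 copies.

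Over these 13 averages, the genes whose pattern was most like that of Mcl1, by Pearson's r of log2(average + 0.01), were Pim1 (0.992), Clec4e (0.991) and Nlrp3 (0.990). For Cflar they were Cd274 (0.984), the PD-L1 gene, Tnfrsf1b (0.974) and Ccrl2 (0.971), and for Bcl2l11 Vps4b (0.983), Kdm6b (0.982) and Rnf149 (0.982). For Bcl2a1b they were Bcl2a1a (0.951), Kctd12 (0.940) and Ebi3 (0.935), for Bcl2a1a Ebi3 (0.968), Csf2rb2 (0.961) and Bcl2a1b, and for Bcl2a1d Bcl2a1b (0.929), Gyg (0.925) and Gsdmd (0.921). For Bcl2l1 they were Por (0.949), Pfkp (0.946) and Mbnl2 (0.941), for Bcl2 Nxpe3, Trib2 and Clcf1 (0.937 to 0.938), and for Bid Btk (0.946), Dok3 (0.927) and B3gnt5 (0.920). Bax had the weakest likeness, with Ube2f (0.857), Cycs (0.828) and AI413582 (0.827). The 13 points share both libraries, and genes were picked from many, so these values are a description.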

How the data were processed

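Reads were turned into counts by the authors with Cell Ranger 3.0.2 on mm10, per the file header and the submitters' notes, and deposited a matrix of UMI counts per gene and barcode without normalization. Barcodes were assigned to a library through the authors' deposited averages of each genotype, a signal per gene that equals the summed UMIs of the barcodes with 1 suffix, divided by their total and multiplied by 1311 (largest difference 3.58e-08). The authors' averages of 13 clusters, taken here as a score, were used as deposited. Columns of fold changes and p-values hold the authors' own comparisons and were not used.

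A cell was kept when it had between 500 and 20000 UMIs, a mitochondrial share below 10% and 200 genes or more. The upper limit removed 382 Smad3-WT and 0 Smad3-KO cells, and kept totals were 12176201 and 4146792 UMIs. Counts were scaled to 10000 per cell and logged, and Louvain clusters were made from 2000 variable genes, without the members and the other genes of cell death, 30 principal components and 15 neighbours at resolution 1 (Python 3.11.15, scanpy 1.11.5, igraph 0.11.9, seed 1), which gave 18 clusters. A cluster was named from at least 3 markers found in 10% of its cells at 2 times the level elsewhere, and a cluster with that many markers of more than 1 class stayed unnamed. No doublet caller was run, and cells with 3 or more markers of another class were removed as an alternative. The level of a gene is its UMI count over all cells of a class in a library, per 1000000 UMIs of those cells (CPM). Levels have exact Poisson intervals, shares exact Clopper-Pearson intervals, and ratios an exact interval from the split of the UMIs (scipy 1.17.1), and PCR and droplet losses are not in them. The ratio intervals were checked only on simulated Poisson counts, the model they assume, so clumping of UMIs within cells was not tested. A gene counted as higher or lower at 1.5-fold with at least 50 UMIs over both libraries. Free RNA was gauged in neutrophil-like cells as the level of other classes' markers over their level at home, with medians of 0.0247 for 14 macrophage or monocyte markers in Smad3-WT, 0.0212 for 5 LLC markers in Smad3-WT, 0.0119 for 12 T or NK markers in Smad3-KO and 0.00870 for 10 B cell markers in Smad3-KO. Single markers of these lists ranged, in that order, from 0.0112 to 0.441, 0.0125 to 0.0354, 0 to 0.0515 and 0.00164 to 0.0413. Precursor granule genes summed to 881 CPM in Smad3-WT and 17458 CPM in Smad3-KO neutrophil-like cells.

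Gene positions are from GENCODE and promoters from RefSeq (GRCm38.p6), with all 10 members matched by symbol. Named beside the members are the other death and survival genes with at least 50 UMIs that passed 1.5-fold (up to 6 a direction), the 3 genes most like each member over the 13 averages, and genes that lead or mark clusters. Mdm2 and Cdkn1a were chosen after their values were seen. Members and lists were chosen with earlier results of these data known. Alternatives changed the filters, the scaling, thinning, the clustering, the seed, the fold, the minimum and the cells of the class. The split of cluster 2 by Camp, cluster 2 alone, the inclusion of cluster 13 and the removal of shared barcodes were added after the data were seen. A result on the caspase and apoptosome list is not reported here.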

Additional observations from a re-analysis of the deposited data

Results flagged for a closer look

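The ratio of Mcl1 lay on opposite sides of 1 in 2 classes. In neutrophil-like cells it was 1.74, and in fibroblast-like cells (cluster 14) it was 0.712 (0.514 to 0.985), which did not pass 1.5-fold, from 39 Smad3-WT cells with 82 UMIs of Mcl1 and 60 Smad3-KO cells with 76. Both intervals exclude 1, and the difference between the classes was not tested, since each genotype has 1 library. The summed neutrophil markers of these fibroblast-like cells stood at 3070 CPM in Smad3-WT and 1488 CPM in Smad3-KO, and their part in that value was not tested.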

How the results depend on the processing

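No paired analysis was possible because each genotype has 1 library. The count of members past 1.5-fold in neutrophil-like cells, 5, stayed within 1.5 times under 14 of 16 alternatives, among them removal of barcodes found in both libraries (5), inclusion of cluster 13 (5) and removal of cells with 3 or more markers of another class (6). It was 3 at a 2-fold limit, which is a stricter limit by construction. In cells of cluster 2 with no Camp UMI it was 1, where 5 members had at least 50 UMIs. This count ignores direction, and its split moved. The class had 3 higher and 2 lower of 9. Cluster 2 alone had 1 higher and 3 lower of 6, beside 15.9% and 32.1% of 1438 genes. Scaling by the median of ratios gave 4 higher and 1 lower, beside its 23.1% and 20.4%. For macrophage or monocyte-like cells the count of 7 stayed within 1.5 times under all 10 alternatives run, but its split moved from 1 higher and 6 lower to 4 and 2 with no filter on cells and to 0 and 5 at 2-fold. The clustering with 100 components at resolution 0.1 left too few Smad3-KO cells of that class and was not run for it. The count of the other death and survival genes, 10, stayed within 1.5 times under 13 of 16. It was 28 with no minimum of UMIs, when 52 genes entered. In cluster 2 alone it was 6, with 0 higher and 6 lower of 13, against 5 and 5 of 25 in the class. In its cells with no Camp UMI it was 2, with 1 higher and 1 lower of 12. Fewer cells and genes entered in both. Counts at the 2-fold limit, with no filter on cells and with no minimum of UMIs have no share of all genes beside them. Those counts are thus not set against a background.

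Of 137 ratios of single members in neutrophil-like cells, 111 stayed within the interval of the reported value. In cluster 2 alone the ratio of Mcl1 turned to 0.839, that of Bcl2l11 to 0.863, that of Bcl2l1 to 0.501 and that of Bid to 2.29. In its cells with no Camp UMI Bcl2l1 stood at 0.730 and Bid at 2.28. The ratio of Bcl2, on few UMIs, turned to 0.795 with no filter on cells. In macrophage or monocyte-like cells Bcl2l1 turned to 1.13 without a filter on cells and 1.79 when thinned, and Bid to 1.46, 1.16 and, with another seed, 1.24. Bcl2l11, at 0.857, turned to 2.69 without a filter on cells, 1.66 with at least 500 UMIs and a mitochondrial share up to 0.2, 1.79 when thinned and 1.02 without cells with markers of another class. Mcl1 stood at 1.395 with another seed. The cause was not tested. Depth limits Bcl2, Bid and the classes with few Smad3-KO cells.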
